A study of Mus musculus with 13 samples.

Results

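The kinetochore is the protein structure that assembles on the centromere of each chromosome and binds the microtubules of the spindle, and the spindle checkpoint is the set of kinases and inhibitors that holds a cell in mitosis until every kinetochore is attached. Here these genes were taken as all genes whose symbol starts with Cenp, plus 23 listed subunits of the outer kinetochore, checkpoint proteins, Aurora kinases and chromosomal passenger proteins. For each gene the brightest of its probe sets with a single symbol was used. The rule found 42 genes, 20 with a Cenp symbol and 22 from the list, of 22180 genes named on the array. Mis12 and Cenpu were only on probe sets that also name another gene and were not counted as members. Of the 42 genes, all passed the filter on dim genes, which required a value above 4.31, the median of all log2 values, on at least 4 arrays.

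The arrays measured RNA of donor CD4+ T cells in a mouse model of graft-versus-host disease. B6D2F1 hosts were injected with C57Bl/6 splenocytes, whose divisions were followed by the dilution of the dye CFSE. Donor and host mice were 10 to 12 weeks old when purchased. Hosts received vehicle by the intraperitoneal route on days 0, 1 and 2 (4 arrays), TCDD at 15 µg/kg on day 0 (4 arrays) or Cl-BBQ at 10 mg/kg on days 0, 1 and 2 (5 arrays). TCDD (dioxin) and Cl-BBQ both bind AhR, the aryl hydrocarbon receptor, which regulates transcription once a ligand is bound. Their regimens differ in dose and in days of treatment. The vehicle days match those of Cl-BBQ, so TCDD against vehicle also compares days of dosing. At 72 hr, on day 3, the alloresponding cells were taken from spleen and lymph node by CD4 microbeads and sorting for at least 2 divisions, so every group holds only cells that had already divided. The labels call the samples of a group biological replicates. Each measurement is on sorted cells in bulk, so fewer cells making a transcript and less of it per cell cannot be told apart.

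Most kinetochore and checkpoint genes are made in a burst late in the cell cycle. Their promoters often carry the cell cycle genes homology region (CHR) close to the start of transcription, together with CCAAT boxes bound by NF-Y, and through them the MuvB complexes repress the genes in resting cells and, with B-MYB and FOXM1, activate them in G2 and M. Other kinetochore proteins, such as the DNA-binding protein CENP-B and the checkpoint adaptor BUB3, are made throughout the cycle.

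The promoters of 9 genes are printed here so that these letters can be read in genes that fell and in genes that were not called. The first 6 genes fell with both ligands and were chosen, after the matches had been seen, for a CHR match between the start and the end of the stretch printed, and the last 3, Bub3, Cenpb and Cenpt, were called with neither. Each sequence, from RefSeq on GRCm38.p6, runs 5′ to 3′ on the strand of the gene from 100 bases before to 30 bases after the annotated start. Capitals mark matches on either strand to TTTGAA or TTCGAA (CHR), CCAAT, or the E2F letters TTTCCCGC, TTTGGCGC, TTTCGCGC and TTTGCCGC. A match on the opposite strand reads TTCAAA or ATTGG, and in Cdca8 a CHR match and a CCAAT match share bases.
Bub1 (chr2:127831830-127831959, minus strand): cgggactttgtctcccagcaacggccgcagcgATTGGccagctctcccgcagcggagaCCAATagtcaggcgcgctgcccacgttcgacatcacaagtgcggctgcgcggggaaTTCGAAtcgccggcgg
Cdca8 (chr4:124936888-124937017, minus strand): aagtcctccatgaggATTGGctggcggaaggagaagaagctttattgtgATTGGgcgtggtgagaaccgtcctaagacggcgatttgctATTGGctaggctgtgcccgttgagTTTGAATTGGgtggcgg
Cenpa (chr5:30666786-30666915, plus strand): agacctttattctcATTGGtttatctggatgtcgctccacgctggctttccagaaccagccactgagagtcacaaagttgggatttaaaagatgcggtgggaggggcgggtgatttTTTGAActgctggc
Cenpf (chr1:189688057-189688186, minus strand): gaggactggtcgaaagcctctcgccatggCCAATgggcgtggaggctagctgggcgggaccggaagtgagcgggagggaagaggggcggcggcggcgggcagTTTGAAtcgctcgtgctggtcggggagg
Spc25 (chr2:69206184-69206313, minus strand): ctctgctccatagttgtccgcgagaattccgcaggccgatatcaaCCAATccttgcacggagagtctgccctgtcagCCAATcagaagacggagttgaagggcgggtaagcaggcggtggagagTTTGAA
Ttk (chr9:83834589-83834718, plus strand): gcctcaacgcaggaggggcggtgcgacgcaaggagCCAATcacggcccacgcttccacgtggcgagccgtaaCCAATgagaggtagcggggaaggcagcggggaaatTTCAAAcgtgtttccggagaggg
Bub3 (chr7:131560270-131560399, plus strand): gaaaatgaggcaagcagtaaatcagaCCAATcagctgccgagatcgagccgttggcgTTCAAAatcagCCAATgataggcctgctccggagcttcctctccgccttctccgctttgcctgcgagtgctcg
Cenpb (chr2:131180038-131180167, minus strand): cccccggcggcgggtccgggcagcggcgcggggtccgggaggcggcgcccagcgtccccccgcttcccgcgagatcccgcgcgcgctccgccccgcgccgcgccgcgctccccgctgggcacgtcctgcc
Cenpt (chr8:105851979-105852108, minus strand): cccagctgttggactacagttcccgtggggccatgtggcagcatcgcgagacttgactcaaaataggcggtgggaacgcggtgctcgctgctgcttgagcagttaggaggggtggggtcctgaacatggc

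These 6 genes, picked for the CHR match after the start, also have 1 or more CCAAT matches before it. They do not stand for all genes that fell: of 25 with a promoter window that were called lower with Cl-BBQ, 16 had no CHR match after the start and 11 had none in the window. Bub3 carries the same kinds of letters, with its CHR match before the start, so the letters alone do not separate it from the genes that fell. Cenpb and Cenpt have no marked letters in this stretch, and an E2F match of Cenpb lies further upstream.

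Promoter windows of 250 bases before to 50 after the start were searched for 36 of the 42 genes. Aurkb, Incenp, Nsl1, Spc24 and Zwilch had none. Ska1, which was called lower with Cl-BBQ, was left out because windows on chromosome 18 were not searched for the 42 genes. The shares over all genes below kept that chromosome. A CHR match was found in 15 of 36 genes (41.7%), against 21.7% of 27025 genes in the table. Of 25 genes with a window that were called lower with Cl-BBQ, 14 had a CHR match, and of 11 that were not called, 1 did, which was Bub3. The match began after the start, at positions 3 to 41, in 9 of 36 genes (25%), against 2.87% of all genes, and all 9 were called lower with Cl-BBQ; this place was chosen after the matches had been seen. CCAAT was present in 23 of 36 genes (63.9%, against 41.1% of all genes), in 19 of the 25 and in 4 of the 11. E2F letters were present in 5 of 36 (13.9%, against 2.6%), in 3 of the 25 and in 2 of the 11. GCGTG, the core of the element bound by AhR, was present in 18 of 36 (50%, against 35.2%), in 12 of the 25 and in 6 of the 11. These are descriptions of letters in 1 window per annotated start, and 4 of the 36 genes had more than 1 start.

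With either ligand the kinetochore and checkpoint genes were lower than with vehicle, and none was called higher. With TCDD 29 of 42 genes were called lower, with a median log2 change of -0.86 over the 42. With Cl-BBQ 31 of 42 were, with a median of -1.04 (limma, adjusted p under 0.05 over all 12710 genes tested). Across all genes tested, 3.5% were called lower with TCDD and 6.03% with Cl-BBQ, and the median change was -0.00 and -0.01. Falls of at least 2-fold were called for 10 of the 42 genes with TCDD, against 0.897% of all genes, and for 22 with Cl-BBQ, against 1.6%. All treated arrays lay below all vehicle arrays for 27 genes with TCDD, against 7.28% of all genes, and for 30 with Cl-BBQ, against 6.8%. The comparisons share the vehicle arrays, so the 28 genes called lower in both are not 2 independent results. None of the 42 was called higher, also none at an unadjusted p under 0.05, which 8.79% of all genes passed upwards with TCDD and 11.1% with Cl-BBQ. At the adjusted threshold 3.21% and 5.31% of all genes were called higher with TCDD and Cl-BBQ. Nor did any of the 42 have all treated arrays above all vehicle arrays, against 6.31% of all genes with TCDD and 6.08% with Cl-BBQ.

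**Figure D1:**
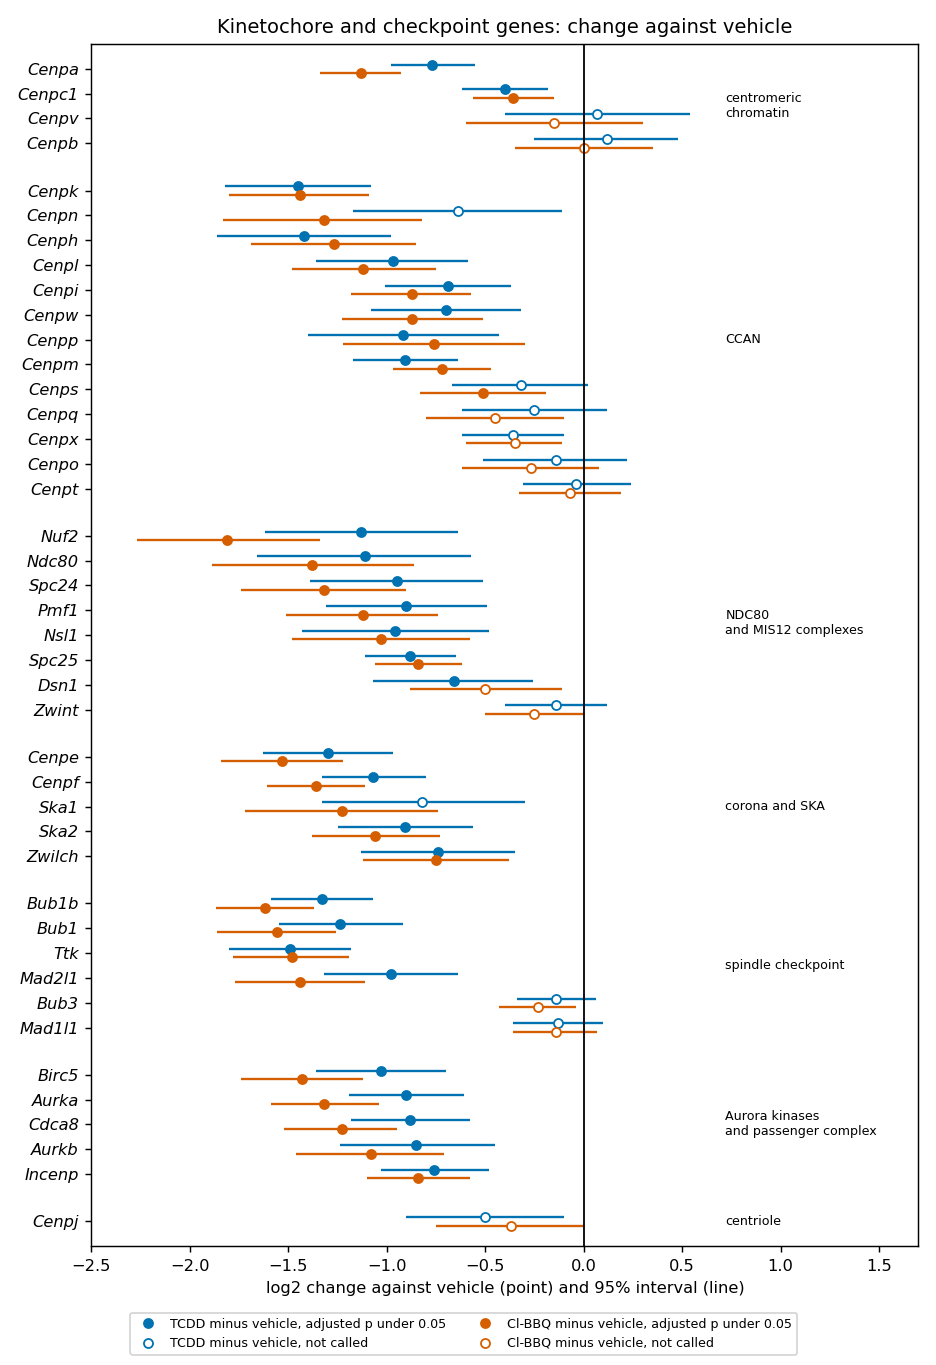
Log2 change of the 42 genes against vehicle (horizontal axis; points, with 95% intervals of the limma model as lines), grouped by role, for TCDD in blue and Cl-BBQ in orange. Filled points were called at an adjusted p under 0.05; the filled points all lie below 0, and the open points of Cenpb and Cenpv with TCDD, at 0.12 and 0.07, are the only ones above it.

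The spread between arrays was small beside these shifts. The mean over the 42 genes was 7.06 ± 0.17 (SD, n = 4) on vehicle arrays, 6.30 ± 0.06 (SD, n = 4) on TCDD arrays and 6.14 ± 0.07 (SD, n = 5) on Cl-BBQ arrays. The lowest vehicle array was at 6.86 and the highest treated array at 6.35, so vehicle arrays did not overlap treated arrays. The TCDD and Cl-BBQ ranges met at 6.21 (TCDD replicate 2 and Cl-BBQ replicate 3). Vehicle replicates 1 and 2 were at 7.21 and 7.17 and replicates 3 and 4 at 6.98 and 6.86. Vehicle replicate 4 was the lowest of its group in 19 of 42 genes and vehicle replicate 1 the highest in 20. The mean over all genes tested lay between 6.38 and 6.47 on every array. Quantile normalization, a part of RMA, makes arrays alike in this respect, so this mean is no separate check on the shift.

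**Figure D2:**
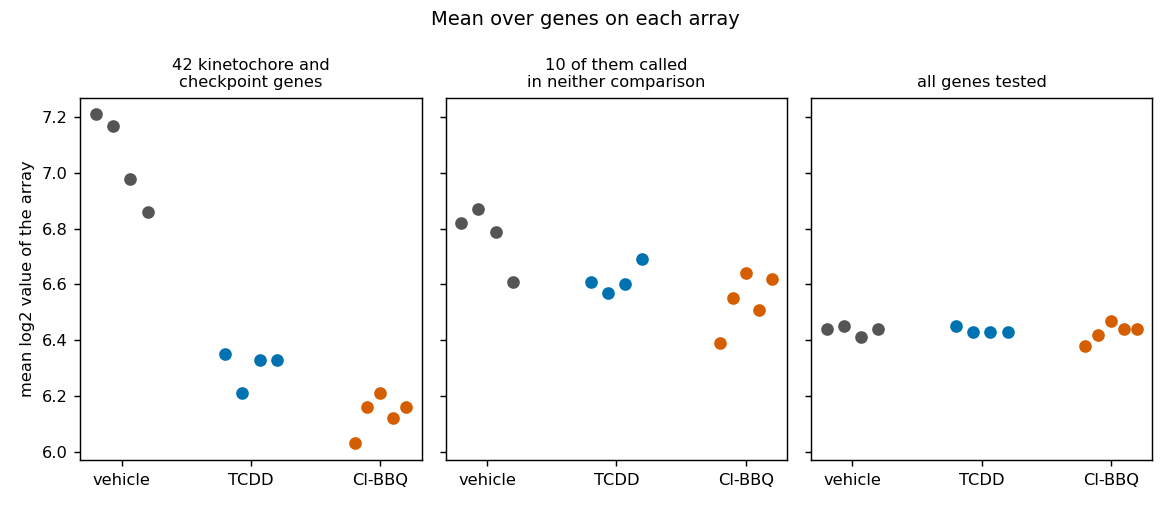
Mean log2 value on each array (vertical axis; points are arrays, by group on the horizontal axis) over the 42 kinetochore and checkpoint genes, over the 10 of them called with neither ligand, and over all genes tested. In the left panel the vehicle arrays, at 6.86 to 7.21, lie above all treated arrays. The genes of the middle panel were chosen by the result of the same test, so that panel is no comparison set. There vehicle arrays lie at 6.61 to 6.87, TCDD arrays at 6.57 to 6.69 and Cl-BBQ arrays at 6.39 to 6.64. In the right panel all arrays lie between 6.38 and 6.47, and quantile normalization makes arrays alike in this respect.

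**Figure D3:**
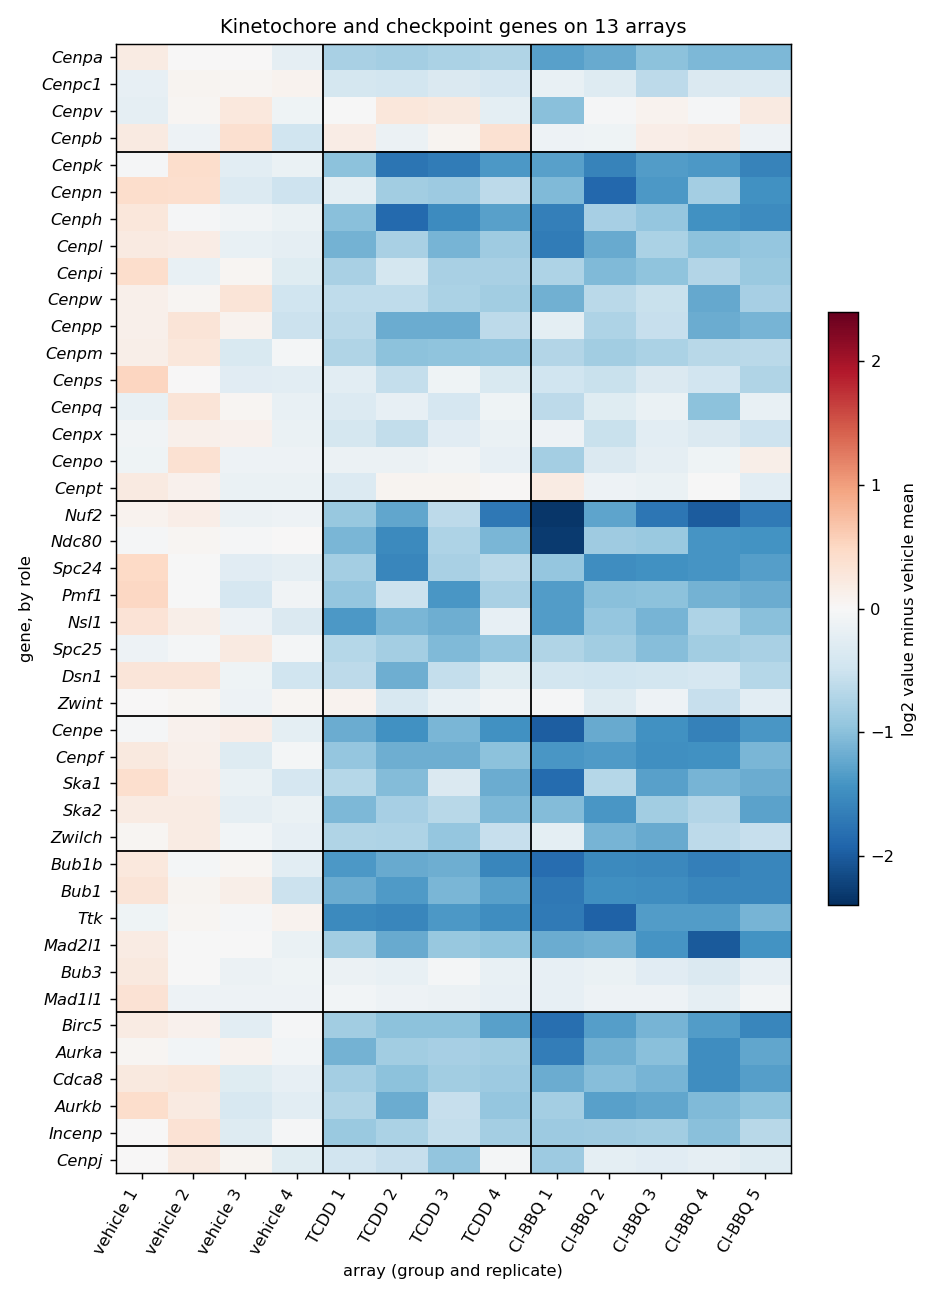
Log2 value minus the vehicle mean (colour) for each of the 42 genes (rows, by role) on each of the 13 arrays (columns). Blue fills the TCDD and Cl-BBQ columns for most genes, while the rows of Cenpb, Cenpt and Mad1l1 stay pale on most arrays.

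Genes of centromeric chromatin behaved unequally. Cenpa encodes the histone H3 variant that marks the centromere. Its log2 values were 9.35, 9.17, 9.16 and 8.93 with vehicle, 8.37, 8.34, 8.40 and 8.43 with TCDD and 7.84, 7.95, 8.16, 8.07 and 8.08 with Cl-BBQ. Every TCDD array was below every vehicle array, and every Cl-BBQ array was below every TCDD array. The change was -0.77 ± 0.10 (SE) with TCDD (limma, adjusted p = 2.1e-04) and -1.13 ± 0.10 with Cl-BBQ (limma, adjusted p = 1.6e-06). Cenpc1, which links centromeric nucleosomes to the outer kinetochore, fell by 0.40 on the log2 scale with TCDD and by 0.36 with Cl-BBQ (limma, adjusted p = 0.027 in both). The TCDD call was lost when any 1 of 6 arrays was left out (adjusted p at most 0.08, vehicle replicate 2 left out) and the Cl-BBQ call when any 1 of 4 was (at most 0.081, vehicle replicate 4 left out). Both were also lost with no filter on dim genes (0.061 in both) and after a further centring of the arrays (0.061 and 0.064).

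Cenpb, which encodes a protein that binds a satellite DNA motif at centromeres, was at 7.41, 7.06, 7.57 and 6.71 with vehicle, at 7.37, 7.04, 7.26 and 7.56 with TCDD and at 7.06, 7.08, 7.34, 7.39 and 7.07 with Cl-BBQ. The groups overlapped throughout. Its difference from vehicle was 0.12 (95% interval -0.25 to 0.48) with TCDD and -0.00 (-0.35 to 0.35) with Cl-BBQ, and the sign of the latter changed with the scaling of the arrays (0.02 after median centring). Cenpv was at 5.95, 6.21, 6.41 and 6.06 with vehicle, at 6.14, 6.43, 6.40 and 5.93 with TCDD and at 5.15, 6.13, 6.25, 6.13 and 6.37 with Cl-BBQ. Only Cl-BBQ replicate 1 stood apart, and the difference was 0.07 (-0.40 to 0.54) with TCDD and -0.15 (-0.60 to 0.30) with Cl-BBQ, or 0.06 without that array.

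**Figure D4:**
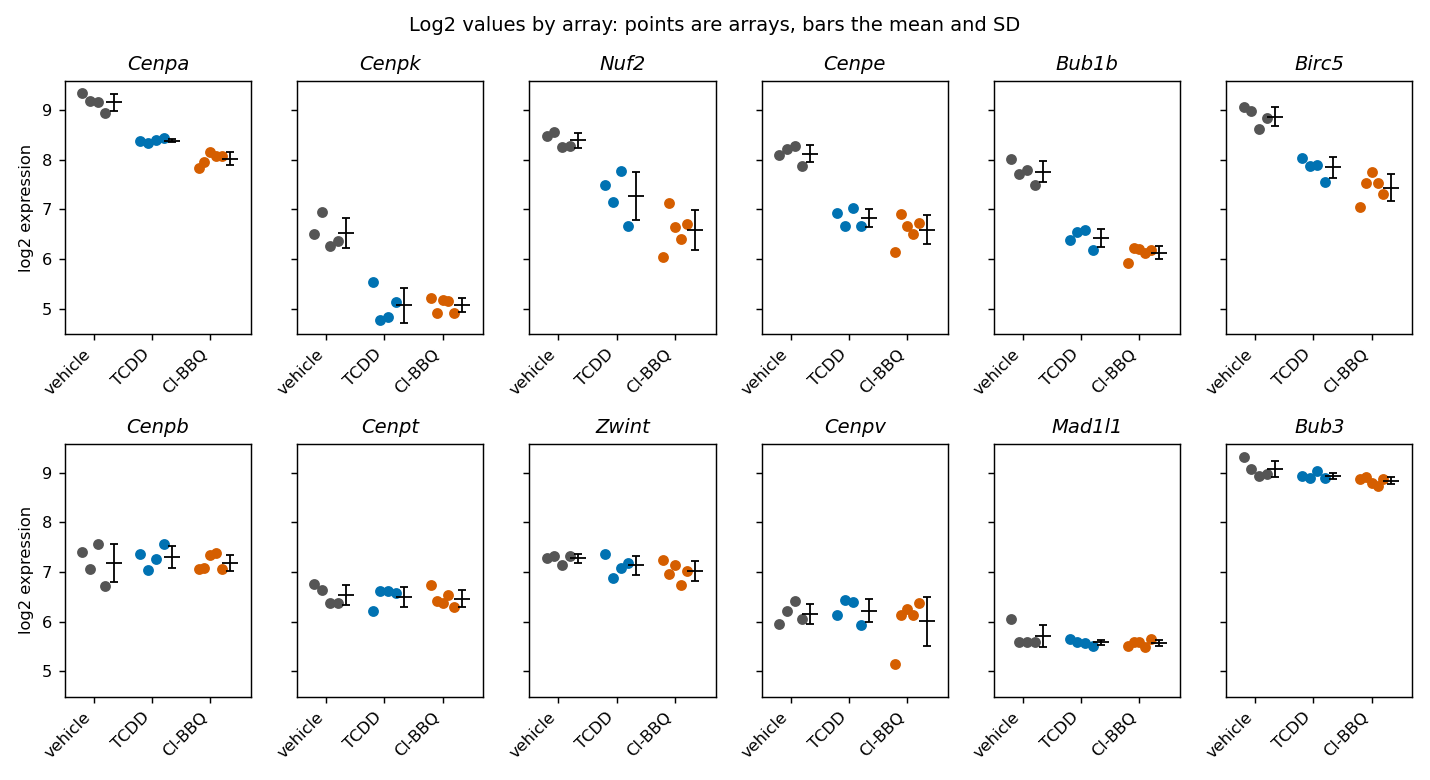
Log2 expression (vertical axis) of 12 genes on each array (points) by group, with the group mean and SD as bars; n = 4 vehicle, 4 TCDD and 5 Cl-BBQ arrays. In the upper row (Cenpa, Cenpk, Nuf2, Cenpe, Bub1b, Birc5) no treated array reaches a vehicle array, and in the lower row the groups overlap, except Bub3, whose Cl-BBQ arrays (8.73 to 8.92) lie just below its vehicle arrays (8.94 to 9.31).

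The constitutive centromere-associated network (CCAN) is the inner layer that sits on centromeric chromatin through the cycle. Of the 13 genes placed under it here, 7 fell with TCDD and 9 with Cl-BBQ, with median changes of -0.69 and -0.76. Cenpc1 was placed under centromeric chromatin and Itgb3bp lies outside the rule, so neither is among the 13. Cenpk changed most. It was at 6.50, 6.95, 6.27 and 6.36 with vehicle, at 5.53, 4.77, 4.84 and 5.14 with TCDD and at 5.21, 4.91, 5.18, 5.15 and 4.92 with Cl-BBQ. No treated array reached the vehicle range, and the change was -1.45 ± 0.17 (SE) with TCDD (limma, adjusted p = 9.4e-05) and -1.44 ± 0.16 with Cl-BBQ (limma, adjusted p = 2.7e-05). Cenph, whose product binds that of Cenpk, fell 2.68-fold with TCDD and 2.41-fold with Cl-BBQ. Cenpl, Cenpm, Cenpi, Cenpw and Cenpp also fell with both, with log2 changes from -0.69 (Cenpi) to -0.97 (Cenpl) with TCDD and from -0.72 (Cenpm) to -1.12 (Cenpl) with Cl-BBQ.

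Several of these inner kinetochore calls were close to the threshold and were lost when 1 array was left out. The TCDD calls of Cenpp (limma, adjusted p = 0.023) and Cenpw (0.027) were each lost when any 1 of 5 arrays was left out. The highest adjusted p was 0.079 for Cenpp (vehicle replicate 2 left out) and 0.088 for Cenpw (vehicle replicate 3 left out). With Cl-BBQ the call of Cenpp (0.033) was lost when any 1 of 6 arrays was left out (at most 0.11, vehicle replicate 2 left out). Cenpn and Cenps were called with Cl-BBQ (log2 changes of -1.32 and -0.51) but not with TCDD (-0.64 and -0.32). Neither was called between the ligands by the test of that difference (limma, adjusted p = 0.61 and 0.91). For Cenpn the 95% interval of that difference was -1.18 to -0.17. The Cl-BBQ call of Cenps (adjusted p = 0.042) was lost when any 1 of 8 arrays was left out (at most 0.12, vehicle replicate 1 left out).

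At the other end of the network, Cenpt, which makes a separate link to the NDC80 complex, was at 6.76, 6.64, 6.38 and 6.37 with vehicle, at 6.21, 6.61, 6.61 and 6.57 with TCDD and at 6.73, 6.41, 6.37, 6.53 and 6.29 with Cl-BBQ. The groups overlapped, and the 95% intervals of its difference were -0.31 to 0.24 with TCDD and -0.33 to 0.19 with Cl-BBQ. Without vehicle replicate 1 the differences were 0.04 and 0.00. Cenpo, Cenpq and Cenpx were not called either, with differences between -0.14 and -0.45, except Cenpx with Cl-BBQ when Cl-BBQ replicate 1 was left out (limma, adjusted p = 0.031), with array weights or with a higher floor.

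The NDC80 complex is the coupler that grips microtubules, and the MIS12 complex holds it to the inner kinetochore. Of 8 genes of these complexes and their partner Zwint, 7 fell with TCDD and 6 with Cl-BBQ, with median changes of -0.92 and -1.08. All 4 NDC80 subunit genes, Ndc80, Nuf2, Spc24 and Spc25, fell with both ligands, with log2 changes from -0.88 (Spc25) to -1.13 (Nuf2) with TCDD and from -0.84 (Spc25) to -1.81 (Nuf2) with Cl-BBQ. The change of Nuf2 with Cl-BBQ was the largest of any of the 42 genes. Nuf2 was at 8.48, 8.56, 8.26 and 8.27 with vehicle, at 7.49, 7.14, 7.77 and 6.67 with TCDD and at 6.05, 7.12, 6.65, 6.40 and 6.70 with Cl-BBQ. Both treated groups lay below vehicle and overlapped each other, and the change was -1.13 ± 0.23 (SE) with TCDD (limma, adjusted p = 0.0066) and -1.81 ± 0.22 with Cl-BBQ (limma, adjusted p = 4.5e-05).

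Ndc80 itself had a spread of 0.03 (SD, n = 4) with vehicle, 0.32 (SD, n = 4) with TCDD and 0.59 (SD, n = 5) with Cl-BBQ. Its TCDD call (limma, adjusted p = 0.014) was lost only without TCDD replicate 2 (adjusted p = 0.051). Pmf1 and Nsl1, of the MIS12 complex, fell with both, with log2 changes of -0.90 and -0.96 with TCDD and of -1.12 and -1.03 with Cl-BBQ. The treated means of Nsl1, 4.14 and 4.07, lay below 4.31, where array values compress differences. Nsl1 passed the filter on dim genes only through its vehicle arrays, so its falls are not independent of that filter. Of its treated arrays only TCDD replicate 4 (4.90) and Cl-BBQ replicate 4 (4.35) were above 4.31. The TCDD call of Nsl1 (limma, adjusted p = 0.015) was lost when any 1 of 3 arrays was left out (at most 0.057, vehicle replicate 1 left out). Dsn1, another subunit, was called with TCDD alone (limma, adjusted p = 0.049). That call disappeared when any 1 of 11 arrays was left out (at most 0.15, vehicle replicate 1 or 2 left out). With Cl-BBQ it was at -0.50 (adjusted p = 0.1), and was called without vehicle replicate 4 (adjusted p = 0.022).

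Zwint, which encodes a binding partner of the KNL1 scaffold, was the only one of these 8 genes called with neither ligand. It was at 7.29, 7.33, 7.15 and 7.33 with vehicle, at 7.36, 6.89, 7.09 and 7.19 with TCDD and at 7.24, 6.96, 7.15, 6.73 and 7.02 with Cl-BBQ. The groups overlapped, with differences of -0.14 (95% interval -0.40 to 0.12) and -0.25 (-0.50 to -0.00). Knl1 itself, which is not among the 42, fell 2.43-fold with TCDD and 3.71-fold with Cl-BBQ (limma, adjusted p = 0.0026 and 3.1e-05).

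The corona is the outermost layer, which catches microtubules before stable attachment, and the SKA complex strengthens the attachment afterwards. Of these 5 genes, 4 fell with TCDD and 5 with Cl-BBQ, with median changes of -0.91 and -1.23. Cenpe, which encodes the kinesin that carries chromosomes to the spindle equator, was at 8.10, 8.22, 8.28 and 7.88 with vehicle, at 6.93, 6.67, 7.03 and 6.66 with TCDD and at 6.15, 6.91, 6.67, 6.50 and 6.73 with Cl-BBQ. The lowest vehicle array was above the highest treated array, and the change was -1.30 ± 0.15 (SE) with TCDD (limma, adjusted p = 8.4e-05) and -1.53 ± 0.15 with Cl-BBQ (limma, adjusted p = 5.1e-06). Cenpf, a large coiled-coil protein of the corona, fell 2.09-fold with TCDD and 2.56-fold with Cl-BBQ. On the brighter of its 2 probe sets Ska2 fell 1.87-fold and 2.08-fold, while on the dimmer one the groups overlapped.

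Zwilch, a subunit of the complex that brings dynein and MAD1 to kinetochores, was at 5.01, 5.16, 4.90 and 4.77 with vehicle, at 4.23, 4.22, 4.04 and 4.40 with TCDD and at 4.73, 3.85, 3.76, 4.33 and 4.40 with Cl-BBQ. The treated arrays were all lower, with means of 4.22 and 4.21 that lay below 4.31. Its changes of -0.74 and -0.75 passed the test (limma, adjusted p = 0.023 and 0.0096), the TCDD call being lost when any 1 of 5 arrays was left out (at most 0.074, vehicle replicate 2 or TCDD replicate 3 left out). Ska1 fell by 1.23 on the log2 scale with Cl-BBQ (limma, adjusted p = 0.0019). With TCDD it was at -0.82 ± 0.24 (SE) and missed the threshold (adjusted p = 0.058), but it was called when any 1 of 4 arrays was left out (as low as 0.027, Cl-BBQ replicate 1 left out) and under 4 other settings, among them array weights (0.025).

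The spindle checkpoint genes divided into 4 that fell steeply and 2 that were not called. Ttk, Bub1b, Bub1 and Mad2l1 fell with both ligands, with log2 changes from -0.98 to -1.49 with TCDD and from -1.44 to -1.62 with Cl-BBQ. Ttk encodes MPS1, the kinase that starts the checkpoint signal. It was at 6.87, 7.02, 6.95 and 7.05 with vehicle, at 5.44, 5.41, 5.60 and 5.48 with TCDD and at 5.28, 5.04, 5.64, 5.63 and 5.85 with Cl-BBQ. Vehicle and TCDD arrays were each within a narrow band and more than 1 log2 unit apart, and the change was -1.49 ± 0.14 (SE) with TCDD (limma, adjusted p = 1.6e-05) and -1.48 ± 0.14 with Cl-BBQ (limma, adjusted p = 3.8e-06).

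Bub1b encodes BUBR1, which together with MAD2 and BUB3 inhibits the anaphase-promoting complex. It was at 8.01, 7.71, 7.79 and 7.50 with vehicle, at 6.38, 6.55, 6.58 and 6.18 with TCDD and at 5.92, 6.22, 6.20, 6.12 and 6.19 with Cl-BBQ. No treated array came within the vehicle range, and the fold was 2.51 with TCDD and 3.07 with Cl-BBQ (limma, adjusted p = 1.0e-05 and 3.4e-07). Bub1, the kinase whose promoter is printed above, fell 2.36-fold and 2.95-fold, and Mad2l1, which encodes MAD2, fell 1.97-fold and 2.71-fold.

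The partners of these proteins did not pass. Mad1l1 encodes MAD1, the kinetochore platform that activates MAD2. It was at 6.06, 5.60, 5.60 and 5.60 with vehicle, at 5.65, 5.60, 5.58 and 5.52 with TCDD and at 5.52, 5.60, 5.60, 5.49 and 5.65 with Cl-BBQ. Apart from vehicle replicate 1 the arrays of all groups lay close together, and the differences were -0.13 (95% interval -0.36 to 0.10) and -0.14 (-0.36 to 0.07). Bub3, the adaptor that carries BUB1 and BUBR1 to KNL1, was at -0.14 with TCDD and -0.23 with Cl-BBQ (limma, adjusted p = 0.51 and 0.13).

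All 5 genes of the Aurora kinases and the chromosomal passenger complex fell with both ligands, with median changes of -0.88 and -1.23. The passenger complex, made of Aurora B, INCENP, survivin and borealin, corrects faulty attachments. Birc5, which encodes survivin, was at 9.06, 8.97, 8.61 and 8.83 with vehicle, at 8.04, 7.88, 7.89 and 7.56 with TCDD and at 7.05, 7.54, 7.75, 7.53 and 7.31 with Cl-BBQ. All treated arrays were lower than all vehicle arrays, and the change was -1.03 ± 0.15 (SE) with TCDD and -1.43 ± 0.14 with Cl-BBQ (limma, adjusted p = 5.7e-04 and 9.2e-06). Cdca8 (borealin) fell 1.84-fold and 2.35-fold, Aurkb 1.80-fold and 2.12-fold, and Aurka, the kinase of the spindle poles, 1.87-fold and 2.49-fold.

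Incenp, the scaffold of the passenger complex, changed least among the 5. It was at 7.66, 8.0, 7.35 and 7.63 with vehicle, at 6.77, 6.90, 7.08 and 6.85 with TCDD and at 6.79, 6.80, 6.82, 6.66 and 7.00 with Cl-BBQ. The groups with and without ligand did not overlap, and the change was -0.76 ± 0.13 (SE) with TCDD and -0.84 ± 0.12 with Cl-BBQ (limma, adjusted p = 0.0016 and 2.3e-04).

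Cenpj carries a centromere name but encodes a protein of the centriole. It was at 6.29, 6.49, 6.35 and 5.99 with vehicle, at 5.83, 5.72, 5.34 and 6.24 with TCDD and at 5.41, 6.05, 6.00, 6.07 and 5.98 with Cl-BBQ. Its groups overlapped, and its differences of -0.50 and -0.37 did not pass (limma, adjusted p = 0.15 and 0.22), except with TCDD without TCDD replicate 4 (adjusted p = 0.048).

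The ligand regimens were also set against each other, which compares dose and schedule together with the compound. The Cl-BBQ mean was below the TCDD mean for 32 of 42 genes, against 6530 of all 12710 genes tested. The 42 genes share the same arrays, so their signs are not independent. The median difference was -0.16, against -0.00 over all genes tested, but no gene of the 42 was called (limma, adjusted p under 0.05). At an unadjusted p under 0.05, 10 of the 42 were lower with Cl-BBQ and none higher, against 3.7% and 2.71% of all genes tested. Of all genes tested, 0.0236% were called higher and 0% lower with Cl-BBQ than with TCDD, so a call was rare for any gene here. Every Cl-BBQ array lay below every TCDD array for Bub1, Cdca8 and Cenpa, 3 of the 42 genes, against 1.08% of all genes, and the reverse held for none, against 1.03%. The genes at the ends of this order, picked after their values had been seen, were Nuf2 (-0.68, 95% interval -1.15 to -0.22), Cenpn (-0.68, -1.18 to -0.17), Mad2l1 (-0.46, -0.78 to -0.13) and, on the other side, Cenpm (0.19, -0.06 to 0.44), with limma adjusted p between 0.57 and 0.88. For Cenpk, Ttk and Spc25 the difference was 0.00 (-0.35 to 0.36), 0.01 (-0.29 to 0.30) and 0.04 (-0.18 to 0.25).

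Kinetochore genes outside the rule were described from a list of 22. Beside this and the 3 lists that follow, 3.5% of all genes tested were called lower with TCDD and 6.03% with Cl-BBQ. Of its 19 tested genes, 12 fell with TCDD and 13 with Cl-BBQ and none was called higher, with median changes of -0.78 and -0.93. Plk1, the mitotic kinase that acts at kinetochores and centrosomes, fell 2.05-fold with TCDD and 2.74-fold with Cl-BBQ (limma, adjusted p = 7.4e-05 and 8.0e-07), and Spag5, which encodes the spindle protein astrin, fell 1.92-fold and 2.79-fold. Itgb3bp, which encodes the network subunit CENP-R, fell by 0.61 and 0.64. Its TCDD call (limma, adjusted p = 0.026) was lost when any 1 of 5 arrays was left out (at most 0.084, TCDD replicate 3 left out).

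The target of the checkpoint, the anaphase-promoting complex, showed fewer calls. Of 21 tested genes of the complex and its regulators, 5 (23.8%) fell with each ligand and none was called higher, with median changes of -0.20 and -0.23. The 5 were not the same genes, as Anapc15 was called with TCDD alone and Anapc1 with Cl-BBQ alone. Cdc20, the activator that the checkpoint inhibits, fell 2.33-fold with TCDD and 3.01-fold with Cl-BBQ (limma, adjusted p = 4.2e-05 and 8.7e-07), and Ube2c, its ubiquitin-conjugating enzyme, fell 1.85-fold and 2.25-fold. Cohesin holds sister chromatids together and condensin compacts them. Of 18 such genes tested, 11 fell with each ligand, among them the condensin genes Ncaph (2.62-fold and 3.32-fold) and Smc2 (2.18-fold and 2.59-fold), and none was called higher.

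Among 22 tested regulators of mitotic transcription, 6 fell with TCDD and 9 with Cl-BBQ, and none was called higher. E2f8, a repressor of the E2F family, fell 2.22-fold and 3.32-fold, and Lin9, a MuvB subunit, fell 1.79-fold and 2.26-fold (limma, adjusted p between 1.9e-06 and 0.0015 for these 4 values). Foxm1, the activator of G2 and M genes, fell by 1.21 on the log2 scale with Cl-BBQ (limma, adjusted p = 0.0011). With TCDD it was at -0.71 ± 0.22 (SE) and was not called (adjusted p = 0.074), except when Cl-BBQ replicate 1 (0.014) or TCDD replicate 2 (0.037) was left out and under 3 other settings, among them array weights (0.029).

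The identity of the sorted cells was checked on marker genes. The mean over 9 markers of CD4+ T cells lay between 10.34 and 10.53 on vehicle arrays, 10.59 and 10.62 on TCDD arrays and 10.56 and 10.65 on Cl-BBQ arrays, so it was slightly higher with both ligands where the kinetochore genes were lower, and 1 of the 9, Cd6, was called higher with each. The mean over 7 B cell markers was between 3.81 and 4.09 on every array, that over 8 myeloid markers between 3.79 and 4.12, and that over 3 erythroid markers, from a lineage that also divides in spleen, between 3.70 and 4.06, all below 4.31. The group means of 3 or 4 of the 7, 6 of the 8 and 2 of the 3 genes lay below that floor. The 4 markers of natural killer cells and 5 of plasma cells had means between 3.88 and 4.30 and between 4.53 and 4.92, in overlapping ranges. The mean of the CD8 genes Cd8a and Cd8b1 lay between 5.28 and 5.55 with vehicle, 5.34 and 6.01 with TCDD and 5.66 and 6.12 with Cl-BBQ. Of these 6 lists, the only gene called was the myeloid Tyrobp, higher with Cl-BBQ (limma, adjusted p = 0.025). The part of any of these cells in the falls was not tested.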

How the data were processed

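The deposited values were log2 expression for 41345 probe sets on 13 single-colour arrays with biotin-labelled targets, made by the authors with RMA, per the submitters' processing notes, which name no software or version. RMA includes quantile normalization, which hides a shift shared by all transcripts. The number of arrays limits the precision. The platform annotation gave 23521 probe sets 1 symbol and 1814 several, and left 16010 unnamed here. Updating symbols by gene identifier changed none. The brightest probe set stood for each of 22180 genes, and 12710 above 4.31 on at least 4 arrays were tested. Array medians lay between 4.27 and 4.33.

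One limma fit (version 3.58.1, R 4.3.3; lmFit and eBayes, 10 residual and 4.22 prior degrees of freedom) gave 3 two-sided contrasts, with Benjamini-Hochberg adjustment over all genes tested. It was tested on simulated data with independent noise for each gene, for TCDD minus vehicle alone. That simulation held no shift shared by genes on an array. A fixed rule named, per role, the genes with the largest and smallest change in each contrast with vehicle. It also named any gene higher there and any called between the ligands (none was). Per further list it took the 2 smallest adjusted p-values, plus Knl1, Itgb3bp and Foxm1. Only members under this rule have their values printed for every array. Other members are given in ranges or by their own changes. Many of these, and Anapc1, Anapc15, Cd6 and Tyrobp, were named outside the rule with their results known. The genes and lists were chosen with earlier results of these data known. Alternatives changed the probe set, floor, scaling, variance model, array weights, arrays fitted, replicate block, symbols and each array.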

Additional observations from a re-analysis of the deposited data

Results flagged for a closer look

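In 9 of 126 groups (42 genes in 3 groups) 1 array stood far from the others of its group, by Dixon's 95% critical value, which chance passes in about 1 group in 20. Lowest arrays were TCDD replicate 1 for Aurka (6.06, the others 6.35 to 6.39) and for Cenpt (6.21, the others 6.57 to 6.61). Vehicle replicate 1 was lowest for Cenpc1 (7.29, the others 7.54 to 7.58) and highest for Mad1l1 (6.06, the others at 5.60). Cl-BBQ replicate 1 was lowest for Cenpj (5.41, the others 5.98 to 6.07) and for Cenpv (5.15, the others 6.13 to 6.37). Highest arrays were Cl-BBQ replicate 5 for Cenpf (5.53, the others 5.16 to 5.26), TCDD replicate 2 for Cenpi (4.96, the others 4.59 to 4.60) and vehicle replicate 2 for Cenpo (6.33, the others 5.83 to 5.85).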

How the results depend on the processing

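The count of genes called lower stayed within 1.5 times its value under all alternatives run, at 24 to 29 with TCDD and 28 to 31 with Cl-BBQ when 1 array was left out, and at 27 to 30 and 28 to 32 under the 10 others. None was called higher in any of these fits, and none was called between the ligands. Median changes without 1 array ran from -0.92 to -0.75 with TCDD and from -1.13 to -0.93 with Cl-BBQ, the smallest falls being those without vehicle replicate 1. Of the called genes, 22 of 29 with TCDD and 28 of 31 with Cl-BBQ were called under every alternative in which they were tested. In the comparisons with vehicle, signs changed only for genes that were never called. Between the ligands, signs were followed for Nuf2, Cenpn, Mad2l1 and Cenpm alone. For Cenpb with Cl-BBQ the difference was 0.02 after median centring or renewed quantile normalization, 0.07 with array weights, 0.03 with the replicate block, and between 0.03 and 0.13 without Cl-BBQ replicates 1, 2 or 5 or vehicle replicates 1 (0.07) or 3; without vehicle replicate 4 it was -0.16. With TCDD it ran from -0.04 (without vehicle replicate 4) to 0.24 over the arrays left out. For Cenpv it was 0.01 with array weights and 0.06 without Cl-BBQ replicate 1, both with Cl-BBQ, and with 1 array left out it ran from -0.24 to 0.06, and with TCDD from -0.00 (vehicle replicate 1) to 0.17. Cenpt with TCDD was at 0.06 without TCDD replicate 1 and 0.04 without vehicle replicate 1, at the top of a range from -0.09, and with Cl-BBQ it ran from -0.14 to 0.00, the latter without vehicle replicate 1. The cause of these changes was not tested. Same-numbered arrays of different groups did not deviate together (correlations of -0.059 to 0.075 over 12 pairs), so the numbers are not taken to pair them. With the replicate block, Cenpc1 and Dsn1 with TCDD and Cenpc1, Cenpp and Cenps with Cl-BBQ were not called, nor was Itgb3bp with either (adjusted p = 0.067 and 0.058, limma); 27 genes fell with TCDD and 28 with Cl-BBQ, and 714 and 1114 of all genes were called, against 853 and 1441 without it.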

Other observations

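Some kinetochore symbols were on probe sets that name a neighbouring gene too, and their values cannot be given to either gene. The probe set of Mis12 and Derl2 was at 7.32, 7.42, 7.01 and 7.37 with vehicle, at 7.06, 7.05, 6.87 and 7.05 with TCDD and at 6.72, 7.27, 6.86, 6.91 and 7.07 with Cl-BBQ. The brighter probe set of Cenpu and Primpol was at 6.70 to 7.10 with vehicle, 6.57 to 6.84 with TCDD and 6.73 to 7.14 with Cl-BBQ, in overlapping ranges. The probe set shared by Adcy3 and Cenpo lay between 5.09 and 5.74 on all arrays. A dimmer probe set of Ska2 was at 4.66 to 4.84 with vehicle, 4.35 to 4.90 with TCDD and 4.01 to 4.80 with Cl-BBQ, without the separation of the groups seen on the brighter one.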
